A study of Mus musculus with 10 samples.

Results

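The CCR4-NOT complex is the main deadenylase of animal cells. Its subunit RNAs were examined in a RIP-seq experiment on adult mouse neural stem cell (NSC) cultures. The members are the 10 genes Cnot1, Cnot2, Cnot3, Cnot4, Cnot6, Cnot6l, Cnot7, Cnot8, Cnot10 and Cnot11, taken by gene symbol from the 15899 genes of the deposited table. Each symbol was found once. The remaining core subunit, Cnot9, is also in the table and is given among the partners of the complex.

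RIP-seq sequences the RNA that comes down with a protein in an immunoprecipitation (IP). Neurospheres, which are floating clonal aggregates of stem and progenitor cells grown with EGF and FGF, were derived from the subependymal zone (SEZ) of mice aged 10 weeks. The FLAG cultures came from mice homozygous for a knock-in allele (Mex3aFLAG/FLAG) that adds a FLAG epitope to the endogenous RNA-binding protein MEX3A. The WT cultures had the same background without the tag, so that RNA found in their IP is nonspecific. The IP was done on crosslinked cells, which gave 2 libraries of each genotype, and in native conditions, which gave 3 of each. The tag is read only through the antibody, in bulk cultures, and input RNA was not analysed here, so more bound RNA and more RNA of that gene in the culture cannot be told apart. Neither can more RNA per cell and more cells that express it. The series' design text calls the replicates biological, but how many animals gave each culture is not given in the sources used here.

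An mRNA carries a poly(A) tail that protects it and promotes its translation. CCR4-NOT shortens that tail, after which the mRNA is decapped and degraded. Cnot1 is the large scaffold on which the other subunits assemble. Cnot2 and Cnot3 form the module at its C-terminal end, and Cnot10 and Cnot11 bind its N-terminal end. The nuclease activity comes from a pair of enzyme families, the Caf1 paralogues Cnot7 and Cnot8 and the Ccr4 paralogues Cnot6 and Cnot6l. Cnot4 is a RING ubiquitin ligase that is a stable subunit in yeast and more loosely attached in mammals. The complex has little sequence preference of its own and is brought to mRNAs by RNA-binding proteins such as those of the Pumilio, Nanos and tristetraprolin families and by the microRNA machinery.

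The values are log2 units with nearly the same distribution in every library (medians of 2.88 to 2.89), and the depth of the libraries is unknown. The number of genes tied at the lowest value of a library was 329 in FLAG native replicate 1 and 178 in FLAG native replicate 3, and between 1 and 3 in the others. FLAG native replicate 2 had the lowest array weight in limma, 0.189, where 1 is the average library, and FLAG native replicate 1 the next lowest, 0.33. Replicate 2 stands apart from the other FLAG native libraries at several members below. Mex3a, the tagged gene, had log2 values of 3.92 and 4.16 in FLAG crosslinked, 2.75 and 3.03 in WT crosslinked, 5.95, 4.03 and 6.10 in FLAG native and 3.33, 3.52 and 2.89 in WT native. Each FLAG library thus lay above each WT library of its protocol, with FLAG native replicate 2 the lowest of the native ones (log2 fold change over all libraries of 1.73, SE 0.37, limma adjusted p = 0.0789). Of 11 neural stem cell markers 10 were in the table, without Gfap, and their summed level ran from 10.97 to 11.17 log2 units in the crosslinked libraries and from 11.15 to 11.47 in the native ones. Over all libraries 5 of these 10 were higher and 2 lower in FLAG at an unadjusted p under 0.05, against 11.2% and 9.85% of all genes, with 0 called and a median log2 fold change of 0.41, and Sox2 among them is in the study's own list of bound RNAs. Of the other markers listed, the table held 3 of 8 for neuroblasts, without the defining Dcx and Tubb3, 1 of 8 for oligodendrocytes, 3 of 7 for microglia, 2 of 6 for endothelial or mural cells and 2 of 5 for ependymal cells. The summed level was between 4.85 and 5.19 log2 units in every library for the microglial markers and between 9.40 and 10.24 for the neuroblast ones, and at most 1.97, 1.63 and 3.20 for the oligodendrocyte, endothelial or mural and ependymal ones. Over all libraries, 2 of the 3 neuroblast markers were higher and 0 lower in FLAG at an unadjusted p under 0.05 (median log2 fold change of 1.24), and 0 of the 2 endothelial or mural markers were higher and 1 lower (median of -0.84), with 0 of either called. Of the neuroblast markers, 1 is in the study's own list of bound RNAs. Of the oligodendrocyte, microglial and ependymal markers 0 were higher or lower at that p. The part of these cells in the results was not tested.

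All 10 subunits were measured, over a wide range of levels. On the scale of log2 value per kb of annotated exon, which allows genes to be set side by side, the mean over the 5 WT libraries was 4.84 for Cnot2, the highest of the members, and 3.83 for Cnot4. Cnot6 and the scaffold Cnot1 followed at 3.10 and 3.05, closer together than their SDs of 0.15 and 0.27. Cnot6l (2.29, SD 0.11) and Cnot10 (2.19, SD 0.15) were also not separated beyond their spread. The lowest were Cnot7 (1.39, SD 0.43), Cnot3 (1.18, SD 0.14), Cnot8 (0.97, SD 0.28) and Cnot11 (0.52, SD 0.16), of which Cnot7, Cnot3 and Cnot8 followed each other in steps smaller than the larger SD of the pair. Within the Ccr4 pair, Cnot6 was thus above Cnot6l in the WT background. The lengths are of the merged exons of all annotated transcripts, and for Cnot1 (17169 nt) and Cnot4 (9779 nt) they are over 2 times as long as the longest transcript (8390 and 3941 nt), which lowers their values per kb.

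**Figure D1:**
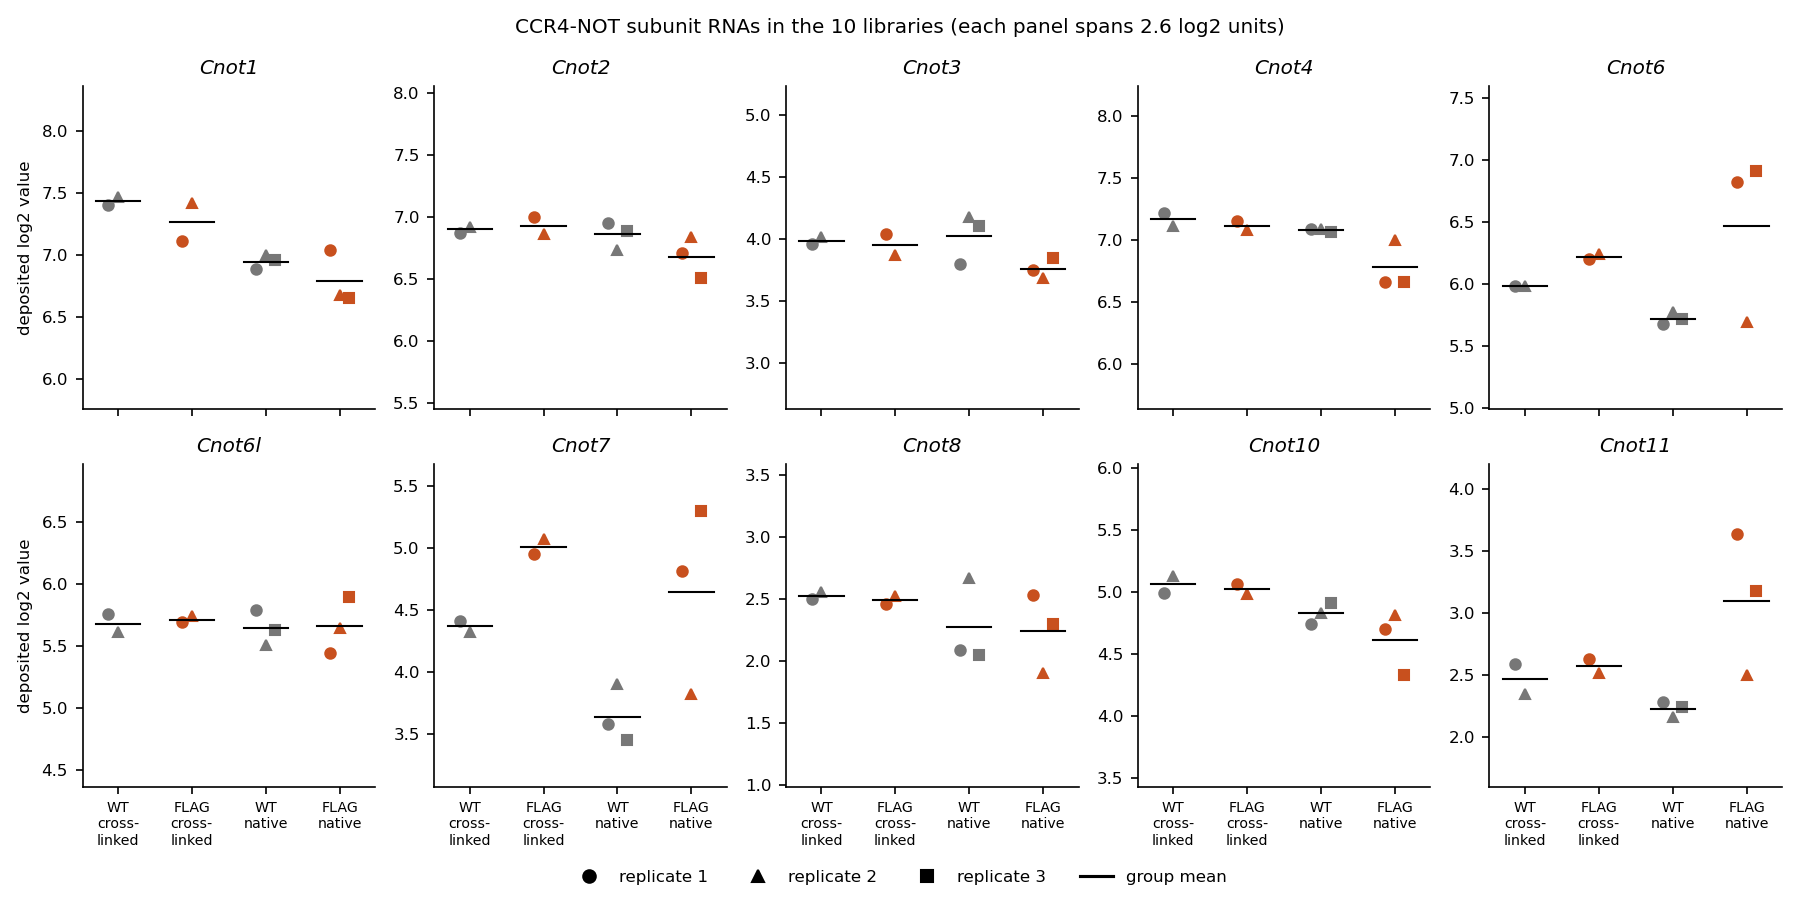
Deposited log2 value (vertical axis) of each CCR4-NOT subunit RNA in the 10 libraries, by genotype and protocol (horizontal axis), with the replicate number as the symbol, WT in grey and FLAG in orange, and a line at each group mean. All panels span the same number of log2 units. For Cnot6, Cnot7 and Cnot11, FLAG native replicates 1 and 3 lie above all WT native libraries and replicate 2 is the lowest of the FLAG native ones, at 5.69, 3.82 and 2.50.

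The catalytic Caf1 subunit Cnot7 (ENSMUSG00000031601, GRCm38 chromosome 8, 40492540 to 40515847, minus strand) was the member with the largest difference between FLAG and WT. Its log2 values were 4.95 and 5.07 in FLAG crosslinked against 4.41 and 4.32 in WT crosslinked. In native conditions they were 4.81, 3.82 and 5.30 in FLAG against 3.58, 3.90 and 3.45 in WT. The groups did not overlap after crosslinking, whereas in native conditions FLAG replicate 2 lay within the WT range. Over all libraries the log2 fold change between FLAG and WT came to 0.86 (SE 0.24, 95% interval 0.33 to 1.39, limma adjusted p = 0.118), 0.64 in the crosslinked libraries (SE 0.09, adjusted p = 0.350) and 1.00 in the native ones (SE 0.36, adjusted p = 0.268), so Cnot7 did not pass the test in any of these comparisons. Without FLAG native replicate 2 it passed over all libraries (1.06, adjusted p = 0.0208) and in the native libraries (1.41, adjusted p = 0.00936). With array weights it passed too (0.63, adjusted p = 0.000978, and 1.41, adjusted p = 0.0103).

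The value listed for Cnot7 cannot be read as Cnot7 alone. Zdhhc2, which encodes a palmitoyltransferase, and Vps37a, which encodes a subunit of the ESCRT-I sorting complex, overlap Cnot7 on the opposite strand. Zdhhc2 had log2 values of 5.02 and 5.07 in FLAG crosslinked, 4.37 and 4.45 in WT crosslinked, 4.86, 3.83 and 5.29 in FLAG native and 3.55, 3.94 and 3.59 in WT native. In no library were these more than 0.15 log2 units from Cnot7, and on average the 2 genes were 0.05 apart. By that largest distance, Zdhhc2 was the nearest to Cnot7 of the other 15898 genes. The exons that Cnot7 and Zdhhc2 share in the GENCODE M21 annotation make up 247 nt, 4.2% of the exonic sequence of Cnot7, in stretches of 53 nt (chr8:40500451-40500503) and 194 nt (chr8:40510075-40510268), none of it in the 3' UTR of Cnot7. The span of Zdhhc2, introns included, covers 73.5% of the exonic sequence of Cnot7. The library kit keeps the strand, but whether the counting used it is not given in the sources used here. Per the methods, reads were counted on the M16 annotation, whose exons were not analysed here, and the shared stretches above are those of M21. Whether Cnot7 and Zdhhc2 share reads was not tested, so a difference in Cnot7 cannot be told from one in Zdhhc2. The log2 fold changes of Zdhhc2 were nearly the same (0.84 over all libraries, 0.63 crosslinked and 0.97 native). Vps37a, with no shared exonic sequence, had log2 fold changes of 0.78 (SE 0.28, adjusted p = 0.171), 0.30 and 1.11 in these comparisons. Its values followed Cnot7 less closely, up to 0.93 log2 units apart.

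**Figure D2:**
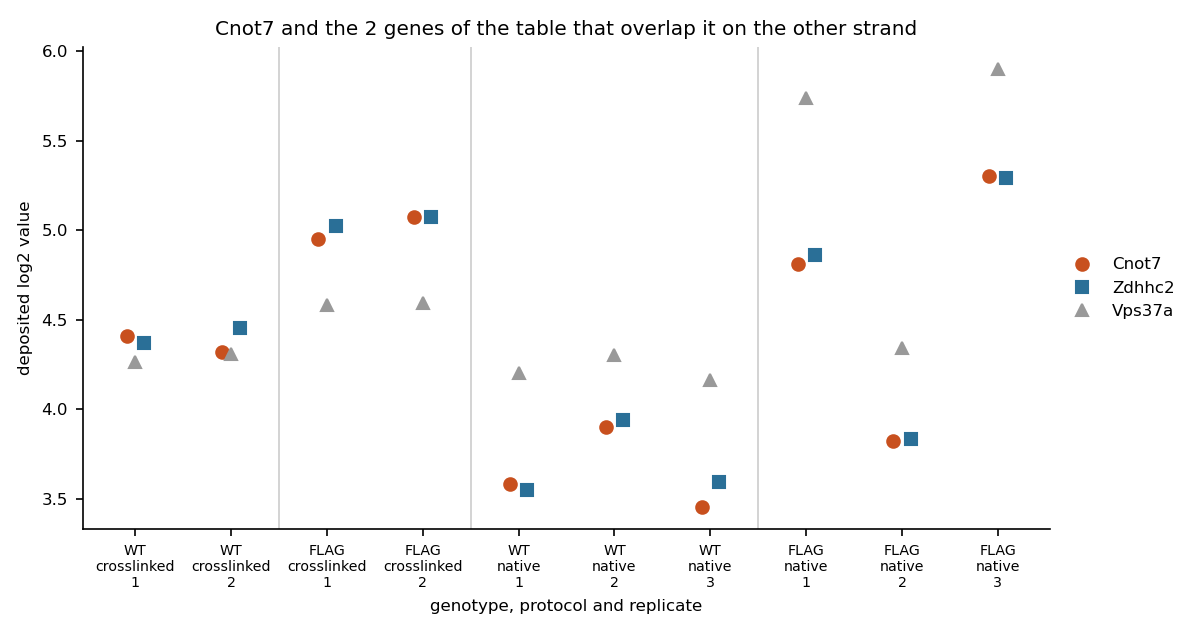
Deposited log2 value (vertical axis) of Cnot7, Zdhhc2 and Vps37a in each of the 10 libraries (horizontal axis, with genotype, protocol and replicate). Cnot7 and Zdhhc2 differ by at most 0.15 in every library, and Vps37a by up to 0.93 from Cnot7.

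Cnot8, the other Caf1 enzyme, showed no such difference. Its log2 values were 2.46 and 2.52 in FLAG crosslinked against 2.50 and 2.55 in WT, and 2.53, 1.90 and 2.30 in FLAG native against 2.09, 2.67 and 2.05 in WT. FLAG and WT overlapped with both protocols, and the log2 fold change over all libraries was -0.03 (95% interval -0.42 to 0.35, adjusted p = 0.919). The sign of so small a value turned when single libraries were left out. Taken as the difference Cnot7 minus Cnot8 within each library, the pair was 0.89 log2 units further apart in FLAG than in WT. It was 2.49 and 2.55 in FLAG crosslinked against 1.91 and 1.78 in WT, and 2.28, 1.92 and 3.00 in FLAG native against 1.49, 1.23 and 1.40 in WT, without overlap in either protocol. This difference was looked at after the values of Cnot7 had been seen and is a description with no test, and the limit on reading Cnot7 apart from Zdhhc2 holds for it too. Of windows of 75 nt, as long as the reads, 7.5% of those along the longest Cnot8 transcript also occur in the processed pseudogene Gm18860, so some Cnot8 reads may be split or lost.

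Of the Ccr4 enzymes, Cnot6 (ENSMUSG00000020362, chromosome 11, 49671503 to 49712723, minus strand) had higher values in the same FLAG libraries as Cnot7. Its log2 values were 6.20 and 6.24 in FLAG crosslinked against 5.98 and 5.98 in WT. In native conditions they were 6.82, 5.69 and 6.91 in FLAG against 5.68, 5.77 and 5.72 in WT. With both protocols the FLAG libraries lay above the WT ones, except FLAG native replicate 2, which lay among them. The log2 fold change was 0.54 over all libraries (SE 0.22, adjusted p = 0.201), 0.24 crosslinked (SE 0.08, adjusted p = 0.610) and 0.75 native (SE 0.30, adjusted p = 0.281). Without FLAG native replicate 2 it was 0.73 over all libraries (adjusted p = 0.0413) and 1.14 in the native ones (adjusted p = 0.00464), both past the test. With array weights it was 0.24 over all libraries (adjusted p = 0.0366), under the size threshold, and 1.02 in the native ones (adjusted p = 0.0119), past both. No other annotated gene of the table overlaps Cnot6, and none of its 75-nt windows occurs in another gene.

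The paralogue Cnot6l had log2 values of 5.69 and 5.74 in FLAG crosslinked against 5.76 and 5.61 in WT, and of 5.44, 5.64 and 5.89 in FLAG native against 5.79, 5.51 and 5.63 in WT. The groups overlapped with both protocols. The log2 fold change was 0.02 over all libraries (95% interval -0.22 to 0.26, adjusted p = 0.924). The difference Cnot6 minus Cnot6l, also a description with no test, was 0.53 log2 units larger in FLAG than in WT. After crosslinking it was 0.51 and 0.50 in FLAG against 0.22 and 0.37 in WT. In native conditions it was 1.38, 0.05 and 1.02 in FLAG against -0.11, 0.26 and 0.08 in WT, so that FLAG native replicate 2 lay within the WT range.

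Cnot11 (ENSMUSG00000003135, chromosome 1, 39534992 to 39546889, plus strand), which binds the N-terminal end of the scaffold, is the third member with high FLAG native values. Its log2 values were 3.64, 2.50 and 3.18 in FLAG native against 2.28, 2.16 and 2.24 in WT native, and 2.63 and 2.52 in FLAG crosslinked against 2.59 and 2.35 in WT crosslinked. The native groups did not overlap, although FLAG native replicate 2 was again the lowest, while the crosslinked groups overlapped. The log2 fold change was 0.57 over all libraries (SE 0.23, adjusted p = 0.205), 0.10 crosslinked (adjusted p = 0.880) and 0.87 native (SE 0.32, adjusted p = 0.270). Without FLAG native replicate 2 the native value was 1.18 (adjusted p = 0.0200), and over all libraries it was 0.69 (adjusted p = 0.0864). With array weights, the value was 0.03 over all libraries (adjusted p = 0.834) and 0.94 in the native ones (adjusted p = 0.0245). With a pseudocount of 8, it was 0.26 (adjusted p = 0.223) and 0.41 (adjusted p = 0.272). Cnot10, which binds the scaffold together with Cnot11, had log2 values between 4.33 and 5.13, with a log2 fold change of -0.14 over all libraries (95% interval -0.40 to 0.11).

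The scaffold and the remaining subunits were level or slightly lower in FLAG. Cnot1 had log2 values of 7.12 and 7.42 in FLAG crosslinked, 7.41 and 7.47 in WT crosslinked, 7.04, 6.68 and 6.66 in FLAG native and 6.89, 7.00 and 6.96 in WT native, overlapping with both protocols. Over all libraries, its log2 fold change was -0.16 (95% interval -0.40 to 0.07, adjusted p = 0.356). Of its exonic sequence, 132 nt are shared with the antisense 4930513N10Rik, which was listed at a mean of 0.57, and that gene or the processed pseudogene Gm6158 also holds 8.9% of the windows of 75 nt along the longest Cnot1 transcript. Cnot2 and Cnot3, the module at the other end, had values of -0.09 and -0.18, with intervals of -0.31 to 0.13 and -0.44 to 0.08. The ubiquitin ligase Cnot4 had log2 values of 6.66, 7.00 and 6.66 in FLAG native against 7.09, 7.09 and 7.06 in WT native, and 7.15 and 7.08 in FLAG crosslinked against 7.22 and 7.11 in WT crosslinked. It was the only member below WT without overlap, in the native libraries, with a log2 fold change there of -0.31 (SE 0.16, adjusted p = 0.344) and of -0.21 over all libraries (adjusted p = 0.263). Without FLAG native replicate 2 the native value was -0.42 (adjusted p = 0.0459), and with array weights the value over all libraries was -0.13 (adjusted p = 0.0328), both under the size threshold and so not called. For these 4 genes and for Cnot10, the intervals over all libraries stay within 0.58 log2 units of 0, the size used as threshold.

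Taken as a group, 0 of the 10 members were called higher or lower in FLAG over all libraries by limma at an adjusted p under 0.05 and a log2 fold change beyond 0.58. Of all genes, 0.264% were called higher and 0.233% lower. These shares, of 42 and 37 genes, depended on single libraries, and with each left out in turn the counts ran from 4 (without FLAG crosslinked replicate 2) to 516 (without FLAG native replicate 2) higher and from 7 (without WT native replicate 1) to 219 (without WT crosslinked replicate 2) lower. At an unadjusted p under 0.05, the 3 members Cnot7, Cnot11 and Cnot6 were higher and 0 were lower, against 11.2% and 9.85% of all genes. In the crosslinked libraries 0 members and 0.0% of all genes were called in either direction, and 2 members (Cnot7 and Cnot6) were higher and 0 lower at an unadjusted p under 0.05, against 5.48% and 2.22% of all genes. In the native libraries 0 members were called, against 0.0% of all genes higher and 0.107% lower, and the same 3 members as over all libraries were higher and 0 lower at an unadjusted p under 0.05, against 8.38% and 8.37% of all genes. Without overlap between FLAG and WT, 2 members (Cnot6 and Cnot7) were higher in the crosslinked libraries, where 19.1% of all genes were, and 1 (Cnot11) in the native ones, where 8.62% were. Lower without overlap were 0 members in the crosslinked libraries, against 19.9% of all genes, and 1 (Cnot4) in the native ones, against 10.8%. The median log2 fold change of the members over all libraries was -0.06, beside -0.03 for all genes, whose quartiles were -0.28 and 0.26. Without FLAG native replicate 2, 2 members were called higher over all libraries (Cnot6 and Cnot7) and 3 in the native ones (with Cnot11), where 3.25% and 9.12% of all genes were. With array weights, Cnot7 was called higher over all libraries and the same 3 members in the native ones, where 6.95% and 10.4% of all genes were.

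**Figure D3:**
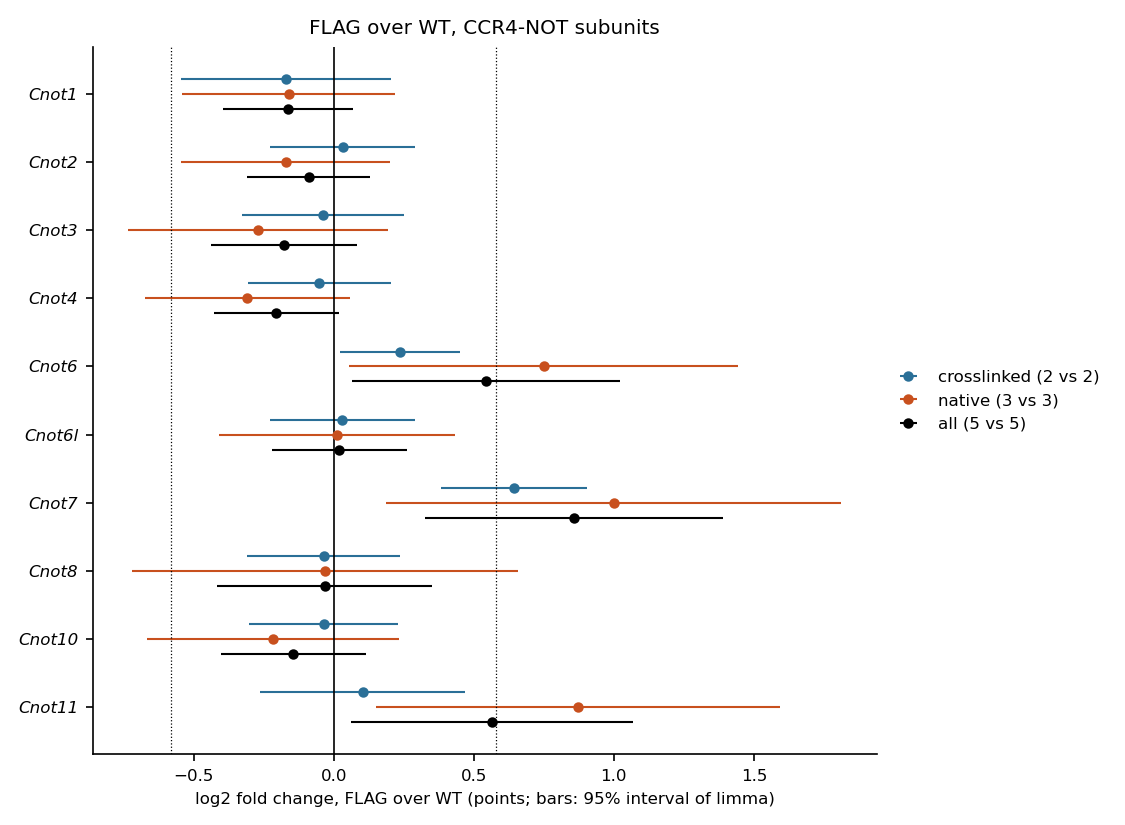
Log2 fold change of FLAG over WT (horizontal axis) for each CCR4-NOT subunit (vertical axis), with the limma 95% interval as a bar, in the crosslinked, the native and all libraries. The solid line marks 0 and the dotted lines mark the threshold of 0.58 on either side. Cnot6, Cnot7 and Cnot11 lie to the right of 0 over all libraries, at 0.54, 0.86 and 0.57, and the others lie between -0.21 and 0.02.

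Whether the FLAG over WT difference itself depended on the protocol was tested in 1 fit of the 4 groups. The native value exceeded the crosslinked one by 0.77 log2 units for Cnot11 (95% interval -0.18 to 1.72), 0.51 for Cnot6 (-0.46 to 1.49) and 0.36 for Cnot7 (-0.77 to 1.48), and 0 members passed (adjusted p = 0.970 for each of these). At an unadjusted p under 0.05, 0 members were higher or lower, against 0.233% and 0.195% of all genes, and of all genes 0.0% were called. Without FLAG native replicate 2 the values were 1.07 for Cnot11 (adjusted p = 0.200), 0.91 for Cnot6 (adjusted p = 0.187) and 0.77 for Cnot7 (adjusted p = 0.230). Then 0 members were called, against 0.00629% of all genes higher and 0.0% lower, and at an unadjusted p under 0.05 these 3 members were higher and 1 (Cnot4, -0.37, adjusted p = 0.239) was lower, against 7.58% and 10.5% of all genes. With single libraries left out, the values ranged from 0.50 to 1.07 for Cnot11, from 0.29 to 0.91 for Cnot6 and from 0.03 to 0.77 for Cnot7. The protocols were thus not shown to differ, within wide intervals.

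The level of the members in the IP was also compared between the protocols, within each genotype. The scaffold Cnot1 lay lower in native than in crosslinked libraries, with a log2 fold change of -0.49 in WT (SE 0.16, adjusted p = 0.437) and -0.48 in FLAG (SE 0.16, adjusted p = 0.220). Every native library lay below every crosslinked one (6.66 to 7.04 against 7.12 to 7.47), but the share of all genes separated in this way was not counted. Neither contrast passed the adjusted test, and the WT and FLAG contrasts share no library. In WT, Cnot7 had the largest value, -0.72 (SE 0.36, adjusted p = 0.711), and it was past the test only with array weights (-0.79, adjusted p = 0.0386), where 2.76% of all genes were called lower. In FLAG it was -0.37 (SE 0.36), and 0.04 without FLAG native replicate 2. For all genes, the quartiles were -0.26 and 0.2 in WT and -0.37 and 0.25 in FLAG, and the share with a negative value was not counted. Of the members, 9 of 10 had a negative value in WT and 8 of 10 in FLAG. Their medians were -0.23 in WT, beside -0.02 for all genes, and -0.24 in FLAG, beside -0.11, both within these quartiles. The exceptions in FLAG were Cnot11 (0.53) and Cnot6 (0.26), which without FLAG native replicate 2 were at 0.83 (adjusted p = 0.0305) and 0.65 (adjusted p = 0.00838), where 9.08% of all genes were called higher. With all libraries, 0 members were called in either genotype, against 0.289% of all genes higher and 0.044% lower in WT and 0.396% and 0.044% in FLAG. Libraries of 1 genotype with the same number deviated together between the protocols, and with that pairing as a random block 0 members were called as well, with 83 genes called higher and 9 lower in WT and 171 and 21 in FLAG. At an unadjusted p under 0.05, 1 member (Cnot1) was lower in WT and 3 (Cnot1, Cnot4 and Cnot10) in FLAG, against 3.71% and 7.1% of all genes, and 0 members were higher, against 3.77% and 8.31%.

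**Figure D4:**
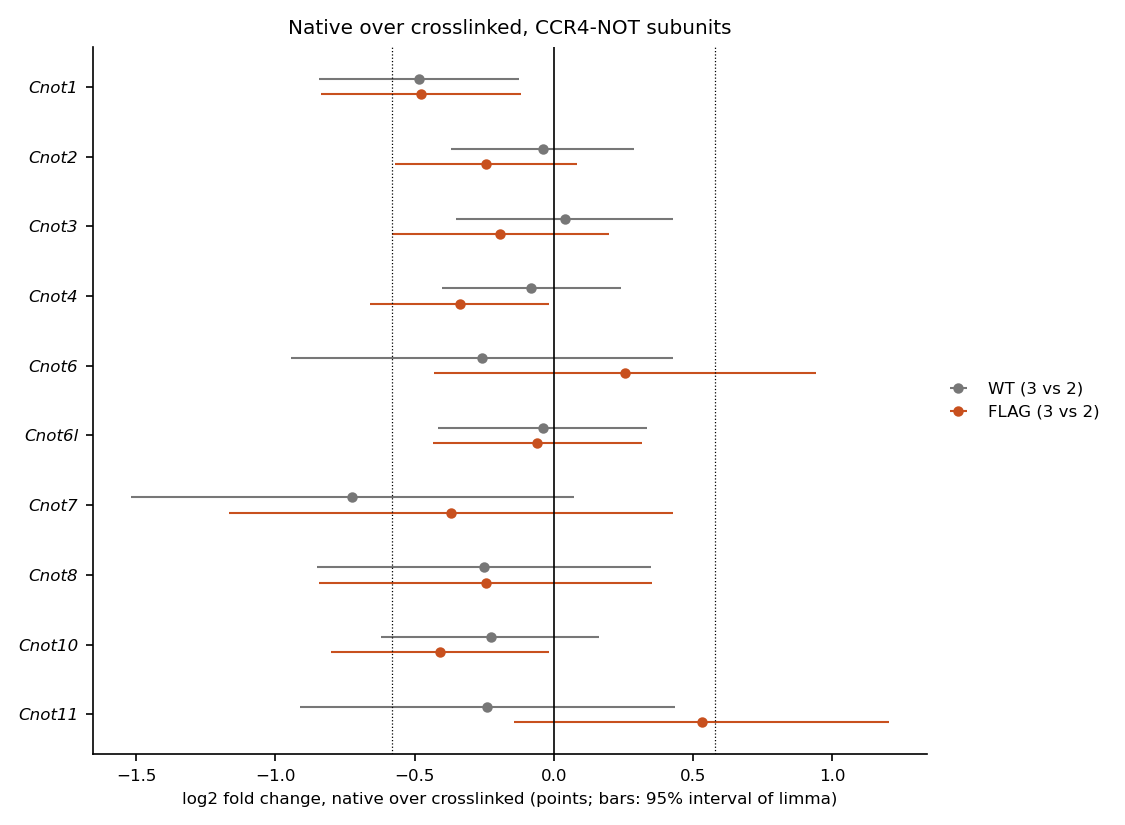
Log2 fold change of native over crosslinked libraries (horizontal axis) for each CCR4-NOT subunit (vertical axis) in WT and in FLAG, with the limma 95% interval as a bar. The solid line marks 0 and the dotted lines mark 0.58 on either side. Cnot1 lies at -0.49 and -0.48, and Cnot6 and Cnot11 are on opposite sides of 0 in the 2 genotypes.

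MEX-3 proteins bind RNA through KH domains, and the MEX-3 recognition element (MRE) known from the nematode protein has 2 short parts. The letters searched on the mRNA strand were a base other than C, then G or T, then AG, followed by 0 to 8 bases of any kind and by T, a base other than G and TA. In the longest annotated 3' UTR, 7 of the 10 members held at least 1 match, as did 77.2% of the 12108 protein-coding genes of the table with a 3' UTR. The exceptions were Cnot1, Cnot2 and Cnot10. Cnot6l and Cnot6 had the most matches, 22 in 6847 nt and 20 in 3690 nt, and per kb Cnot6 had 5.42 against 3.21 in Cnot6l and 2.80 over all 3' UTRs. Cnot4 had 6 matches (4.61 per kb), Cnot7 and Cnot11 had 5 each (3.46 and 3.08 per kb), and Cnot3 and Cnot8 had 1 each. Many matches also stood beside small differences in the IP, as in Cnot6l and Cnot4, whose log2 fold changes over all libraries were 0.02 and -0.21. The Pumilio element TGTANATA, a site of proteins that recruit CCR4-NOT, was in 6 members (Cnot1, Cnot2, Cnot6l, Cnot8 and Cnot11 with 1 each and Cnot7 with 2) and in 28.0% of the coding genes. The AU-rich pentamer ATTTA, part of the sites of the tristetraprolin family, was in 9 members, all but Cnot10, and in 72.1% of the coding genes. The following sites come from GENCODE M21 transcripts on GRCm38. They show the members with the largest log2 fold changes of FLAG over WT beside their paralogues, with 1 MRE each, and have the matched letters of each element in capitals and the flanks in lower case.
Cnot7 MRE at chr8:40493915-40493942, minus strand: tgcttgtatATAGgtTTTAtcatccctt
Cnot7 Pumilio element at chr8:40493921-40493948, minus strand: cacacatgctTGTATATAggttttatca
Cnot7 Pumilio element at chr8:40492554-40492581, minus strand: ttaaagctttTGTAAATAaaggcttcaa
Cnot8 MRE at chr11:58118331-58118357, plus strand: gcttaaggTTAGgcaTTTAggaagcac
Cnot8 Pumilio element at chr11:58118529-58118556, plus strand: ttaagatgctTGTAAATAttatttatgt
Cnot6 MRE at chr11:49674393-49674419, minus strand: gctgatctGTAGgcaTTTAatggactg
Cnot6l MRE at chr5:96075379-96075406, minus strand: aatttcttccATAGTTTActgatcaggc
Cnot11 MRE at chr1:39545646-39545673, plus strand: tgaagacgcTGAGaaTTTAcggtgagcg
Cnot11 Pumilio element at chr1:39546847-39546874, plus strand: acagctgaaaTGTAAATAaaataattta
The first pair of Cnot7 lines overlap, so that the MRE begins inside the Pumilio element. The last Pumilio elements of Cnot7, Cnot8 and Cnot11 share the letters of the core and lie 24, 48 and 25 nt before the annotated end of the 3' UTR. A match is a description of letters and does not show that MEX3A or a Pumilio protein was bound there.

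The other genes of mRNA decay were set beside the subunits. None was called in any of the comparisons of FLAG with WT. Of 23 partners of the complex in the table, 9 were higher and 3 lower in FLAG over all libraries at an unadjusted p under 0.05, against 11.2% and 9.85% of all genes, with a median log2 fold change of 0.24 beside -0.03 for all genes. In the crosslinked libraries 1 was higher and 1 lower, against 5.48% and 2.22% of all genes, and in the native ones 9 and 2, against 8.38% and 8.37%, with medians of 0.12 and 0.35. For the difference between protocols 0 of them were higher or lower at that p, against 0.233% and 0.195%. The largest was Tob1, an adaptor that binds the Caf1 enzymes, at 1.77 (SE 0.45, adjusted p = 0.101). Its relatives Btg2 (1.16, adjusted p = 0.134) and Tob2 (1.11, adjusted p = 0.138) had similar values, as did the AU-rich element binding proteins Zfp36l2 (1.24, adjusted p = 0.152) and Zfp36 (1.14, adjusted p = 0.137), which recruit CCR4-NOT to mRNAs. Tob1, Btg2 and Zfp36l2 are in the list of bound RNAs that the study drew from these libraries, so they are no independent evidence of a direction. Of the 10 subunits, 0 are in that list, which holds a small share of the genes of the table, so this count says little about them. Btg3, of the same family as Btg2, was at -0.57 (adjusted p = 0.149), and the subunit Cnot9 at 0.24 (95% interval -0.11 to 0.59).

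The same shares of all genes, 11.2% higher and 9.85% lower, stand beside the counts of the other lists. Of 9 other deadenylases, which include the Pan2-Pan3 complex and Parn, 0 were higher and 1 was lower at an unadjusted p under 0.05, Pnldc1 at -0.88 (adjusted p = 0.196), and the median was -0.01. Of 17 genes of decapping and 5' to 3' decay, 1 was higher and 1 lower, with a median of 0.05. The higher one was Dcp2, the decapping enzyme, at 0.70 (adjusted p = 0.194), and the lower one its cofactor Dcp1b, at -0.50 (adjusted p = 0.170). Of 16 genes of the exosome and the Ski complex, which degrade RNA from the 3' end, 0 were higher and 1 was lower, Exosc7 at -0.50 (adjusted p = 0.223), with a median of -0.11. Of 12 genes of poly(A) binding and tail synthesis, 2 were higher and 1 was lower, with a median of 0.04. The highest was Pabpc1, the main cytoplasmic poly(A)-binding protein, at 0.89 (SE 0.28, adjusted p = 0.137), and the lowest its relative Pabpc1l, at -0.96 (adjusted p = 0.154).

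**Figure D5:**
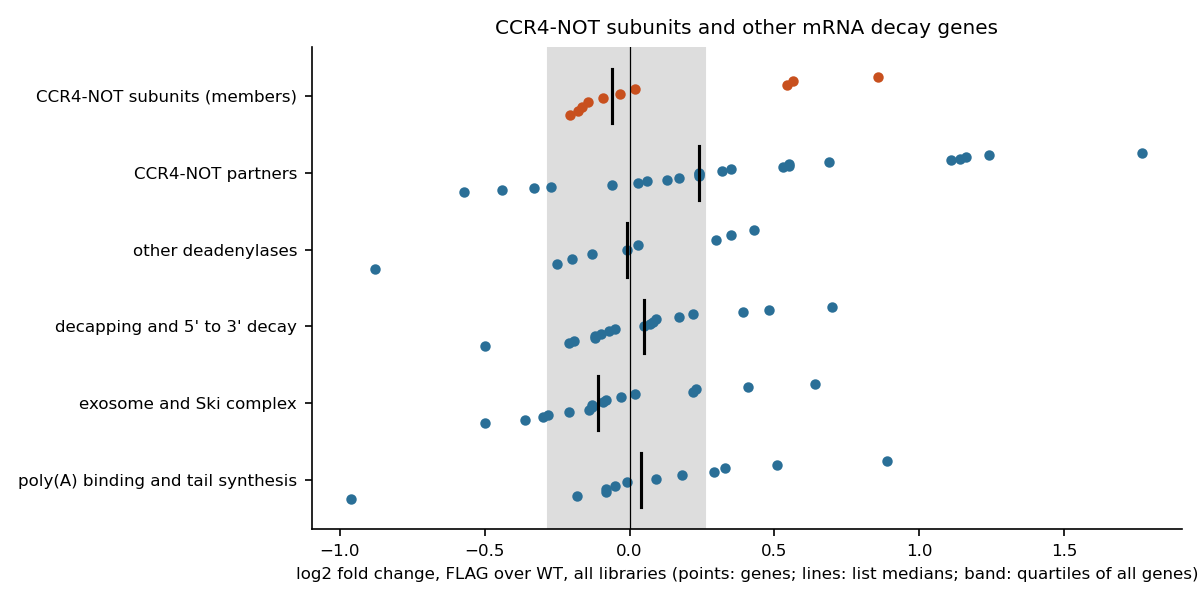
Log2 fold change of FLAG over WT in all libraries (horizontal axis) for the CCR4-NOT subunits and 5 other groups of mRNA decay genes (vertical axis). Each point is a gene, each vertical line a group median, and the grey band runs between the quartiles of all genes, -0.28 and 0.26. The partners of the complex have the highest median, 0.24, and 3 subunits lie right of the band.

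Over the 10 libraries, the profile of the scaffold Cnot1 was most like those of Ptcd3 (Pearson r = 0.959), the small nucleolar RNA gene Gm22620 (0.954), Cops3 (0.938), Bnip1 (0.936) and Ccdc84 (0.936), as a description of libraries that share a genotype and a protocol. None is a subunit of the complex. Of the subunits, Cnot10 was nearest to Cnot1, at 0.76, followed by Cnot8 at 0.65, and Cnot6 (-0.08), Cnot6l (-0.13) and Cnot11 (-0.20) were farthest. Other overlaps of annotated genes touch Cnot2 and Cnot3. Cnot2 overlaps the noncoding 5330438D12Rik on the opposite strand, with 232 nt of shared exon, and their values were at most 0.73 log2 units apart. Cnot3 shares 433 nt with Leng1, which was up to 2.12 log2 units apart. If the counting did not use the strand, reads in these shared stretches cannot be assigned to 1 gene of a pair.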

How the data were processed

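RNA from anti-FLAG IPs was measured in 10 libraries. Per the labels and methods, the authors trimmed the reads with Cutadapt and Trimmomatic, mapped them to GRCm38 with HISAT2 and counted them per gene of the GENCODE M16 annotation with featureCounts. The methods name DESeq2 for normalization and testing, and the submitters' processing notes name limma. The authors deposited log2 values for 15899 genes, with nearly the same distribution in each library, as after quantile normalization, a step not given in the sources used here. Raised from the log2 scale, a library sums to between 949427 and 949437, so counts and depth are unknown, and no count model, counting interval or detection floor could be given.

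The deposited log2 values were used without a pseudocount. Comparisons were made with limma 3.58.1 (R 4.3.3) with eBayes (trend over the mean level), p-values adjusted by Benjamini-Hochberg across the whole table, with the protocol as a covariate over all libraries, within each protocol, and in 1 fit of 4 groups for the contrasts of protocol. No filter on low values was applied, so each of the 10 members entered every fit. The thresholds (adjusted p under 0.05, log2 fold change beyond 0.58) follow the study. The limma fits, without the alternatives below and except for native over crosslinked in FLAG, and the MRE search were tested on simulated data. The other steps reported here were not. Named genes were the members, Mex3a, the gene of the smallest p in each decay list, and the 5 genes most like Cnot1. Tob2, Btg2, Btg3, Zfp36, Zfp36l2, Dcp2, Pabpc1l, Cnot9 and the genes overlapping members were named after their values were seen. Members and lists were chosen with earlier results of these data known. Alternatives were pseudocounts of 1 and 8, a minimum mean of 10, median centring, array weights, robust moderation, the replicate number as a block, genotype and number as a random block (added later), 1 fit of 4 groups and each library left out. Lengths, 3' UTRs and sites came from GENCODE M21, in which 15864 of the genes were found. Protein sequences were not used here. Python 3.11.15, pandas 2.3.3, numpy 2.4.6, scipy 1.17.1 and matplotlib 3.10.9 were used.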

Additional observations from a re-analysis of the deposited data

How the results depend on the processing

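The depth of the libraries is unknown, and their number limits the precision. Over the 6 comparisons, 0 members were called under the pseudocounts of 1 and 8, the minimum mean of 10 (which removed the low members), median centring, robust moderation and, for the crosslinked and the native comparison of FLAG with WT, 1 fit of 4 groups. Array weights gave 1 call over all libraries (Cnot7 higher), 3 in the native libraries (Cnot6, Cnot7 and Cnot11 higher) and 1 for native over crosslinked in WT (Cnot7 lower). With each library left out in turn, the calls ranged from 0 to 2 over all libraries, from 0 to 3 in the native libraries and from 0 to 2 for native over crosslinked in FLAG, each highest without FLAG native replicate 2, and they were 0 throughout for the crosslinked libraries, for native over crosslinked in WT and for the difference between protocols.

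Same-numbered FLAG and WT libraries did not deviate together from their group means. The correlations were -0.15, -0.43 and -0.17 in native conditions and -0.27 after crosslinking. The crosslinked pairs give only 1 value, since deviations within a group of 2 mirror each other. So few libraries cannot settle whether the numbers pair FLAG with WT. With the replicate number as a block, 0 members were called in every comparison, and the genes called over all libraries were 14 higher and 20 lower, against 42 and 37 without it. For native over crosslinked it left 0 higher and 2 lower in WT, against 46 and 7, and 10 and 2 in FLAG, against 63 and 7. Between protocols, same-numbered libraries of 1 genotype had correlations of 0.18 and 0.15 (FLAG) and 0.30 and 0.39 (WT), so they may not be independent. With genotype and number as a random block, added after the data had been seen (consensus correlation of 0.327 over all libraries), 0 members were called, Cnot7 over all libraries had an adjusted p = 0.204, and the genes called were 7 higher and 8 lower. It turned Cnot8 in the difference between protocols to -0.02. A pseudocount of 8 left 10 genes called higher over all libraries and a minimum mean of 10 left 13. The crossed pairing of the crosslinked libraries, added after the data had been seen, called 0 genes.

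Signs turned only for values near 0 and for Cnot7 in native over crosslinked in FLAG. Array weights turned Cnot6l over all libraries to -0.02, Cnot8 in the native libraries to 0.16, Cnot2, Cnot6l and Cnot3 in native over crosslinked in WT to 0.01, 0.02 and -0.04, and Cnot6l in FLAG to 0.02. The replicate block put Cnot3 in native over crosslinked in WT at 0.00. With single libraries left out, the values over all libraries ranged from -0.11 to 0.08 for Cnot8 and from -0.04 to 0.08 for Cnot6l. In the crosslinked libraries they ranged from -0.01 to 0.22 for Cnot11, from -0.04 to 0.10 for Cnot2 and for Cnot6l, from -0.13 to 0.05 for Cnot3, and from -0.11 to 0.01 for Cnot4 and to 0.03 for Cnot10. In the native libraries they ranged from -0.17 to 0.17 for Cnot8 and from -0.11 to 0.12 for Cnot6l. For native over crosslinked they ranged in WT from -0.09 to 0.03 for Cnot2, from -0.11 to 0.03 for Cnot6l and from -0.03 to 0.15 for Cnot3, and in FLAG from -0.70 to 0.04 for Cnot7 and from -0.18 to 0.05 for Cnot6l. For the difference between protocols they ranged from -0.14 to 0.21 for Cnot8, from -0.14 to 0.09 for Cnot6l and from -0.14 to 0.16 for Cnot1. The cause was not tested. With the second part of the MRE as T, a base other than G, AT, 8 members held a match, as did 76.8% of the coding genes. Cnot2 and Cnot10 then held 1 and 2, Cnot8 held 0, and Cnot7 held 8 (5.53 per kb against 3.46).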
